A study of Rattus norvegicus with 48 samples.

Results

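The arrays of 14 hepatocellular carcinomas were compared, 9 labelled advanced (aHCC), taken at 14 months, and 5 labelled early (eHCC), taken at 10 months, out of 48 arrays of rat liver in the series. They were chosen by their titles, and each stage was read against 3 control livers numbered close to it, controls 25 to 27 for aHCC and controls 46 to 48 for eHCC, so that 20 arrays entered the comparison. All samples came from male F-344 rats, and lesions were cut by laser capture from stained frozen sections. The carcinomas arose in a model in which rats received 150 mg/kg diethylnitrosamine, recovered for 2 weeks, ate 0.02% 2-acetylaminofluorene for 1 week, underwent partial hepatectomy, stayed on that diet for 1 more week and then returned to basal diet. The labels give neither the age of the control rats nor a treatment of their own. They do not tie lesions to animals either, so several carcinomas may come from 1 rat, and the p-values below may then be too small.

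Hepatocellular carcinoma is cancer of the hepatocyte, the cell that makes most plasma proteins and carries the cytochrome P450 enzymes, the urea cycle and bile acid synthesis. Carcinogens of this model damage hepatocyte DNA, and the surviving altered cells grow out as nodules that switch on detoxifying enzymes under the transcription factor NRF2. As tumours progress, hepatocyte functions are often lost and the surrounding matrix, vessels and macrophages are rebuilt. Comparing advanced with early carcinomas asks which of these features differ between the stages.

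Each array reported an intensity and a detection p-value for 22523 probes, and 12341 features (8689 named genes and 3652 probes without a symbol) were tested on the log2 scale. Between 8689 and 10287 probes were detected per array in aHCC, 10199 to 11434 in eHCC and 8323 to 9453 in the 6 controls. All 6 hepatocyte markers with a probe were detected in every array except Hnf4a in aHCC replicate 29 (7.02), and their mean log2 intensity was 12.46 to 13.04 in 8 aHCC, 10.91 in aHCC replicate 29, 11.88 to 12.79 in eHCC, 13.13 to 13.16 in controls 25 to 27 and 13.34 to 13.53 in controls 46 to 48. Replicate 29 stood apart from the other aHCC, with a median correlation of 0.857 to them over all 22523 probes, against 0.971 to 0.986 for each of the other 8. In it, galectin Lgals4 reached 14.09 and trefoil factor Tff1 13.98, 121-fold and 105-fold above the medians of the other aHCC, while the plasma proteins Serpina3c and Pon1 lay 136-fold and 131-fold below. In eHCC Lgals4 ran from 7.02 to 12.19 and Tff1 from 7.13 to 11.79, while Serpina3c ran from 12.14 to 14.89 and Pon1 from 13.96 to 15.06. Among the hepatocyte markers replicate 29 was low in Ttr (10.81, against 14.67 to 15.18 in the other aHCC), Cps1 (8.70) and Tat (9.61). It was not low in albumin, where its 15.41 exceeded the 14.39 to 14.99 of the other aHCC. The counts below are therefore given with and without replicate 29. Among eHCC, replicate 39 lay farthest out, with the most detected probes and a level of 15.08 for Krt19, a keratin of bile ducts and progenitor cells.

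**Figure D1:**
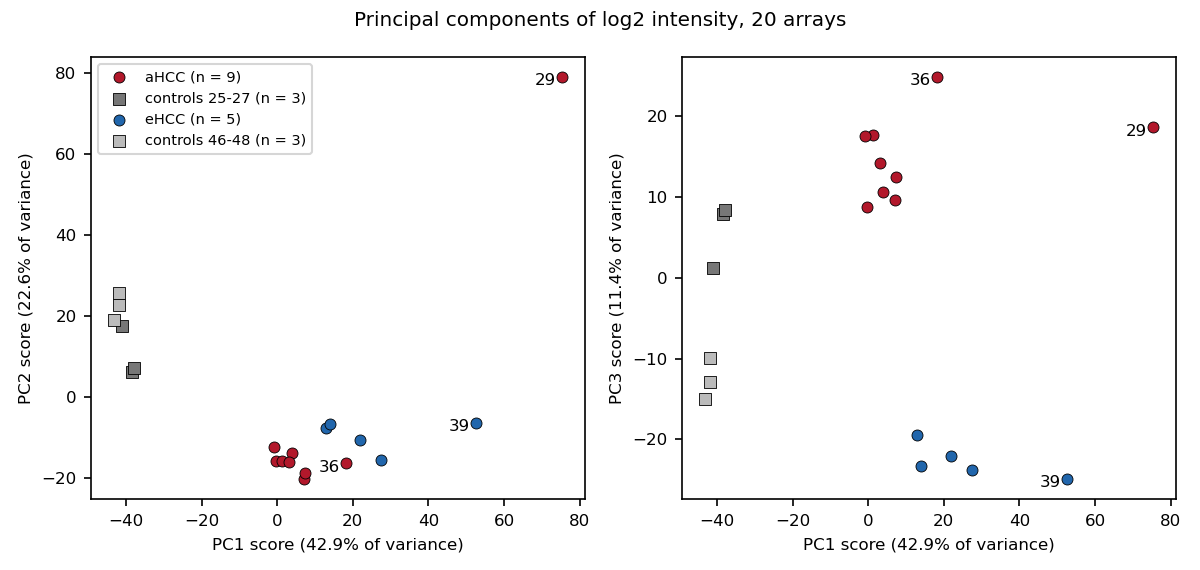
Scores of the 20 arrays on the first 3 principal components of log2 intensity over the tested features (PC1 42.9%, PC2 22.6% and PC3 11.4% of variance), 1 point per array. Replicate 29 of aHCC lies at 75.4 on PC1 and 79 on PC2, away from all other arrays, and on PC3 the aHCC (8.7 to 24.8) and controls 25 to 27 (1.2 to 8.4) lie above the eHCC (−24.9 to −19.5) and controls 46 to 48 (−15.0 to −9.9).

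**Figure D2:**
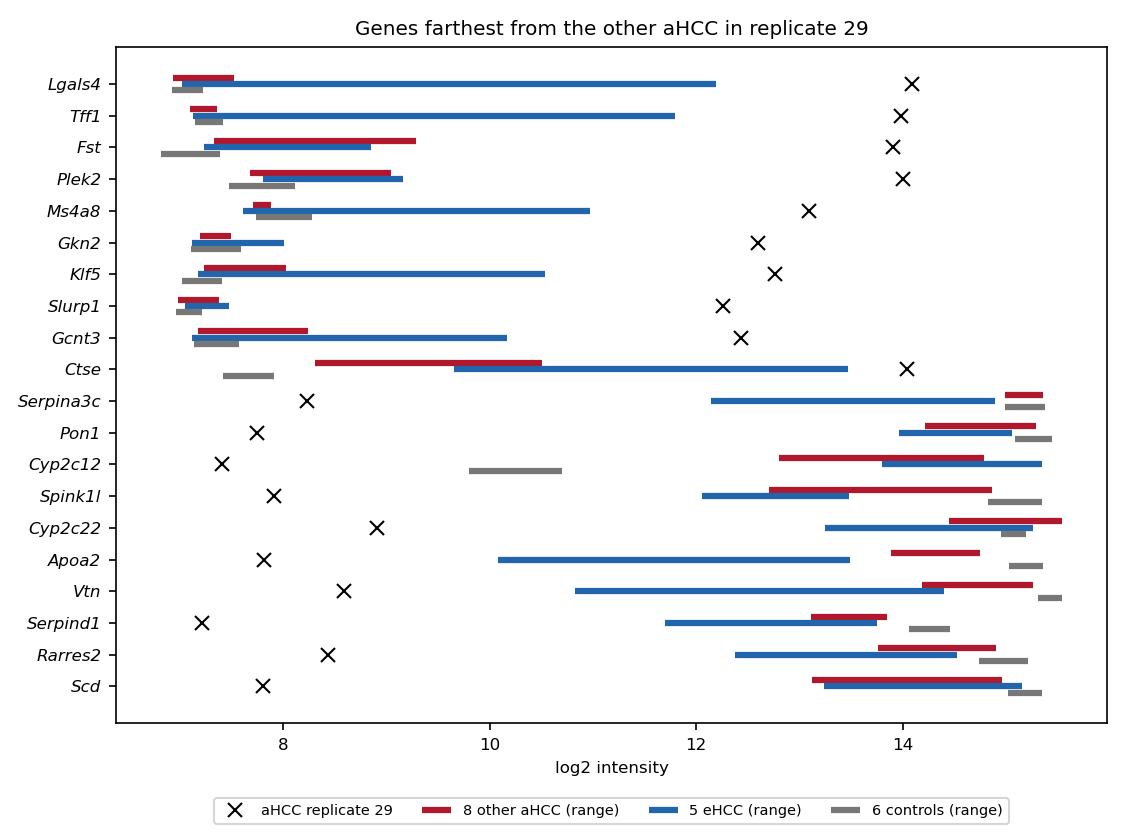
Log2 intensity of the 10 genes farthest above and the 10 farthest below the other aHCC in replicate 29 (crosses), beside the ranges of the 8 other aHCC, 5 eHCC and 6 controls (bars). Lgals4 at 14.09 and Serpina3c at 8.23 in replicate 29 both lie outside every range drawn.

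Stage and array set cannot be told apart in a direct comparison, because every aHCC is numbered among samples 25 to 36 and every eHCC among samples 37 to 48. The controls of the sets differed too. Rhoa, the small GTPase that organises the actin skeleton, had log2 intensities of 9.62, 9.34 and 9.26 in controls 25 to 27, against 12.32, 12.53 and 12.05 in controls 46 to 48. In carcinomas it ran from 8.77 to 10.22 in aHCC (median 9.39), against 12.19, 12.48, 12.44, 12.25 and 12.71 in eHCC. The groups shared no value, and Rhoa was 7.85-fold lower in aHCC than in eHCC (limma adjusted p = 2.24e-08), yet once each stage was set against its own controls the difference was −0.08 ± 0.32 (log2, SE; adjusted p = 0.978). Ddx6, an RNA helicase of P-bodies, behaved likewise, with a direct log2 difference of −2.73 and a control-subtracted one of −0.19. Between the control sets 59 of 12341 features (0.478%) passed at an adjusted p of 0.05. The count was 524 (4.25%) when the spread was estimated without replicate 29, and 7 to 117 when 1 of the 6 controls was left out. The main comparison therefore was the control-subtracted one, (aHCC minus controls 25 to 27) minus (eHCC minus controls 46 to 48). The direct difference, aHCC minus eHCC, is given too, and differences below are direct unless called control-subtracted.

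The direct test called 1677 features (13.6%), 767 higher in aHCC (6.22%) and 910 lower (7.37%). Without replicate 29 it called 3370 (27.3%), of which 1558 were higher (12.6%) and 1812 lower (14.7%), and they included all 1677. The control-subtracted test, with 3 controls on each side, called 1 feature (0.00810%), with 1008 at an unadjusted p under 0.05. Without replicate 29 it called 32 (0.259%), 8 higher (0.0648%) and 24 lower (0.194%). Of those 32, 27 also passed the direct test without replicate 29 with the same sign, on the same carcinoma arrays. Against their own controls, aHCC had 1484 calls (12.0%; 6.16% higher and 5.87% lower) and eHCC 2630 (21.3%; 11.3% higher and 9.99% lower), or 2661 (21.6%) and 4150 (33.6%) without replicate 29. The first count was 724, 858 and 813 without control 25, 26 and 27, and the second 1656 without control 48. The control-subtracted count was also 22 without control 25 and 18 without eHCC 38. The median SD over features was 0.236 among 9 aHCC and 0.163 without replicate 29, against 0.159 among 5 eHCC and 0.141 without replicate 39.

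Lims1 was the 1 call of the control-subtracted test. It encodes an adaptor of integrin adhesions (PINCH1), the contacts by which a cell holds its matrix. Its log2 intensity in aHCC had a lowest value of 7.34, a median of 7.44 and a highest of 7.76, against 9.29, 8.50, 9.02, 8.79 and 9.12 in eHCC. Every eHCC lay above every aHCC. The probe was detected in 5 of 9 aHCC and in 5 of 5 eHCC but in none of the 6 controls, which read 7.27, 7.36 and 7.09 (controls 25 to 27) and 7.36, 7.39 and 7.18 (controls 46 to 48). Lims1 was 2.74-fold lower in aHCC than in eHCC (−1.45 ± 0.11 log2, SE; limma adjusted p = 2.57e-07), and the control-subtracted difference was −1.38 ± 0.20 (adjusted p = 0.0153; −1.37 and 0.00538 without replicate 29). Leaving out a single control among 26, 46, 47 and 48 raised the adjusted p to 0.122, 0.0654, 0.0547 and 0.121, with differences of −1.32, −1.41, −1.42 and −1.32.

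Without replicate 29, the genes lower in aHCC after control subtraction included the neurofilament Nefl and the transcription factors Mybl1 and Sox4. Nefl, a structural protein of nerve axons, ran in the 9 aHCC from 7.17 (replicate 29) through a median of 8.52 to 10.02, against 12.11, 11.87, 13.49, 10.24 and 13.52 in eHCC. No aHCC reached the lowest eHCC, and the 6 controls were undetected at 6.86 to 7.10. Nefl was 14.2-fold lower in aHCC (−3.83 ± 0.46 log2, SE; limma adjusted p = 3.91e-05), with a control-subtracted difference of −3.92 (adjusted p = 0.177; −3.76 and 0.0461 without replicate 29). Without eHCC replicate 44, the lowest of its group, that difference was −4.42 with an adjusted p of 0.0179.

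Mybl1 (A-Myb), a transcription factor known from dividing germ cells and B cells, ran from 7.99 through a median of 8.48 to 9.13 in aHCC, against 9.48, 10.53, 10.44, 10.82 and 10.87 in eHCC. The controls (8.11 to 8.77) lay among the aHCC and below all eHCC. It was 3.73-fold lower in aHCC (limma adjusted p = 2.83e-05), and the control-subtracted difference was −2.03 ± 0.39 (log2, SE; adjusted p = 0.0958, or 0.0378 without replicate 29 and 0.0095 without eHCC replicate 38). Sox4, a developmental factor of progenitor cells, ran from 7.44 to 7.99 in the 8 other aHCC and was 9.45 in replicate 29, against 9.69, 10.30, 9.18, 8.42 and 9.39 in eHCC. It overlapped between stages only through replicate 29, and its control-subtracted difference without that array was −1.79 (limma adjusted p = 0.0432).

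The endocytic adaptor Dab2 showed the same arrangement. It lay between 9.51 and 9.92 in 8 aHCC and at 12.05 in replicate 29, against 10.76, 11.71, 11.12, 11.24 and 11.25 in eHCC. Its control-subtracted difference was −1.46 with all arrays (limma adjusted p = 0.482) and −1.72 without replicate 29 (adjusted p = 0.00258). Rcn1, a calcium-binding protein of the endoplasmic reticulum, ran from 9.71 (replicate 29) through 10.97 to 11.12 in aHCC, against 11.86, 11.93, 12.22, 11.93 and 11.78 in eHCC. Its groups did not overlap, and the difference after control subtraction was −1.33, or −1.19 without replicate 29 (limma adjusted p = 0.00538). The other named genes lower in aHCC after control subtraction without replicate 29 were Prnp (prion protein), Agtpbp1 (a tubulin-trimming carboxypeptidase), Afg3l2 (a mitochondrial protease), Capn2 (a calpain), Slc29a3 (a nucleoside transporter), Smad7 (an inhibitor of TGF-beta signalling), Scpep1, Mknk2, Pi4ka, Prtfdc1, Cul4b, Gstp1 and Inmt. Their control-subtracted differences without that array lay between −1.71 for Inmt and −0.56 for Cul4b.

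In Inmt and Gstp1 the direct difference between carcinomas did not pass, and the controls differed. Inmt, a methyltransferase, read 7.14 to 7.83 in aHCC, against 7.15 to 7.54 in eHCC, while controls 25 to 27 were at 10.13, 11.42 and 11.57 and controls 46 to 48 at 9.36, 8.98 and 8.82. Its direct difference was 0.25 (limma adjusted p = 0.453). Gstp1, the placental glutathione S-transferase used as the classic marker of altered foci in rats, read 14.74 to 15.54 in aHCC (median 15.51), against 15.51, 15.44, 15.48, 15.51 and 15.49 in eHCC. Both stages of Gstp1 pressed against the upper limit of the scale, 15.54, with 11 of the 14 carcinoma arrays within 0.5 of it. Its direct difference was −0.19 (limma adjusted p = 0.381), and the controls of the sets differed by 0.78.

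Named genes higher in aHCC after control subtraction without replicate 29 were Habp2, Cyp4a2, Cry1, Nrbf2 and Recql4. Habp2, a hyaluronan-binding serine protease that the liver secretes, read 10.14 to 11.50 in 8 aHCC and 7.59 in replicate 29, against 9.10, 8.42, 7.91, 10.05 and 7.93 in eHCC. The 6 controls were higher than both stages, at 11.86 to 12.19. Habp2 was 4.22-fold higher in aHCC than in eHCC (limma adjusted p = 0.0118), and the control-subtracted difference was 2.11 with all arrays (adjusted p = 0.57) and 2.51 without replicate 29 (adjusted p = 0.0432). Cyp4a2, which hydroxylates fatty acids, read 9.50 to 10.80 in 8 aHCC and 7.08 in replicate 29, against 7.74, 7.29, 7.66, 8.84 and 7.70 in eHCC. Controls again were highest (12.33 to 13.06). Its control-subtracted difference without replicate 29 was 2.22 (limma adjusted p = 0.0378). For Recql4, a DNA helicase, the carcinomas read 7.18 to 7.55 in aHCC, against 7.28 to 7.41 in eHCC. Its control-subtracted difference without replicate 29, 0.72, came with controls that differed by −0.69.

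**Figure D3:**
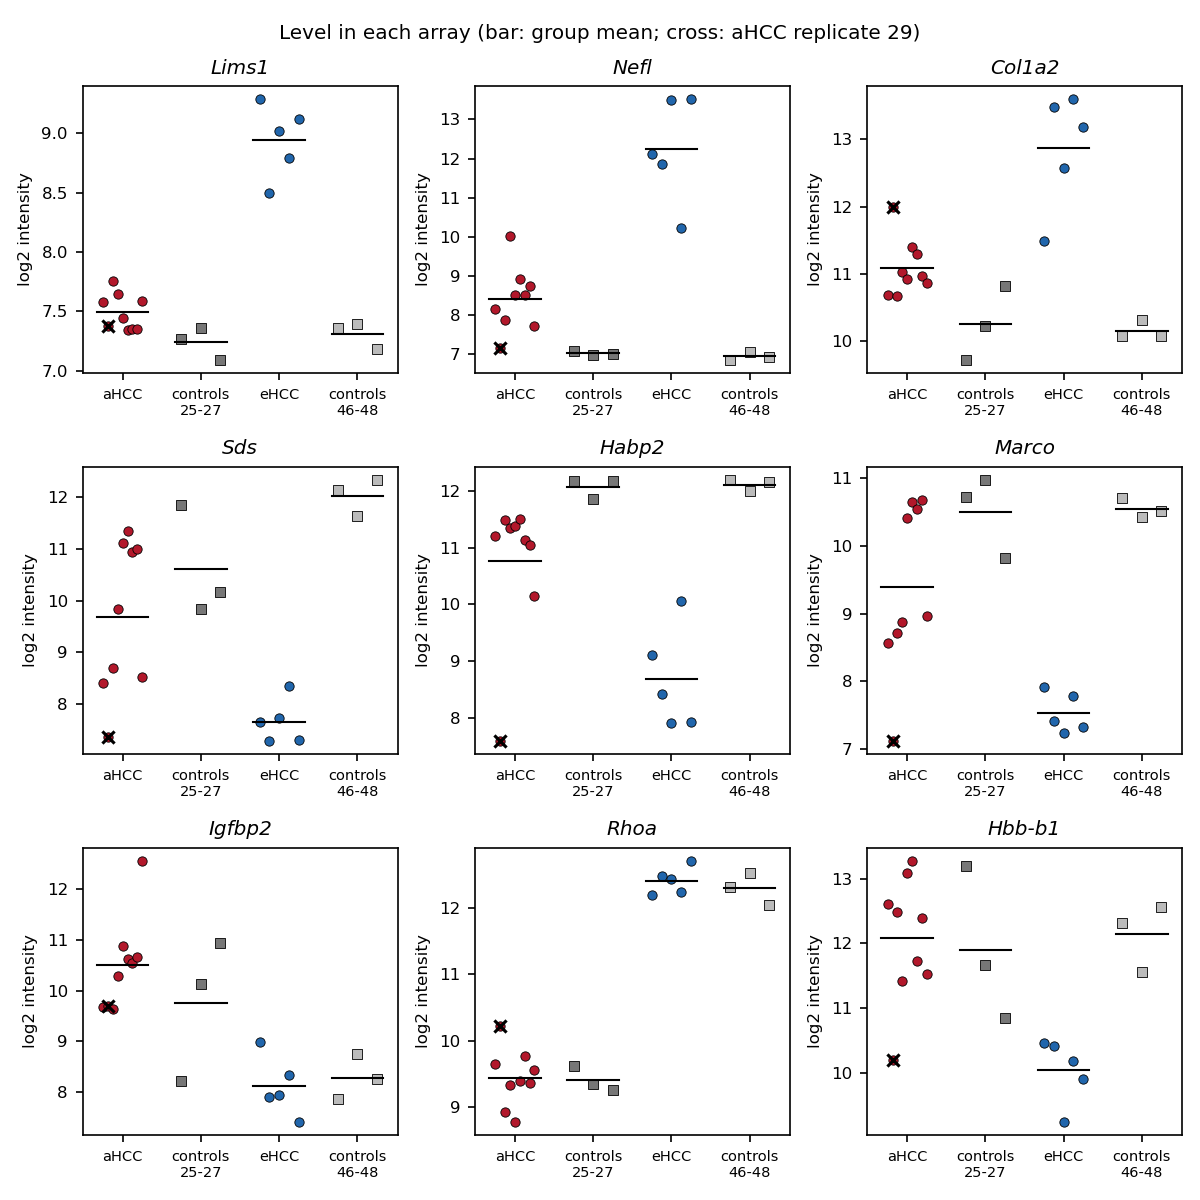
Log2 intensity of 9 genes in each of the 20 arrays, by group, with bars at the group means and a cross on aHCC replicate 29. Lims1 and Nefl are lower in every aHCC than in any eHCC, for Nefl narrowly (10.02 in aHCC 31 against 10.24 in eHCC 44). Habp2 and Marco are higher in 8 aHCC than in the eHCC. Rhoa separates the array sets in carcinomas and controls alike (about 9 in aHCC and controls 25 to 27, about 12 in eHCC and controls 46 to 48).

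Further genes were taken from those that passed the direct test, by the size of their control-subtracted difference. In all, 117 features (0.948%) passed the direct test with a control-subtracted difference of the same sign and at least 1 on the log2 scale, 38 of them higher (0.308%) and 79 lower (0.640%). Without replicate 29 there were 209 (1.69%), 113 higher (0.916%) and 96 lower (0.778%). None of these features other than Lims1 passed the control-subtracted test with all arrays, and neither did any member of the lists below.

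Sds, serine dehydratase, which feeds serine into gluconeogenesis, had the largest rise by that measure. In aHCC it ran from 7.36 (replicate 29) through a median of 9.83 to 11.35, against 7.65, 7.29, 7.73, 8.36 and 7.30 in eHCC. The 8 other aHCC lay above every eHCC. Controls 46 to 48 (12.13, 11.63 and 12.33) were higher than controls 25 to 27 (11.84, 9.83 and 10.17), so that the direct difference of 2.03 ± 0.59 (log2, SE; limma adjusted p = 0.0284) became 3.45 ± 1.05 after subtraction (adjusted p = 0.355). The direct call was lost when aHCC 32 or any of eHCC 38, 39, 40 and 45 was left out, with adjusted p-values of 0.0506 to 0.0699.

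Other liver-secreted or liver-enzyme genes that were higher in aHCC in the direct limma test were Azgp1 (4.88-fold), the kininogen Kng1 (5.47-fold), the hepatokine Fgl1 (4.15-fold), Cyp4a3 (3.71-fold), Sdr16c6 (3.58-fold), the bile acid enzyme Cyp8b1 (3.51-fold), the nicotinamide methyltransferase Nnmt (3.35-fold) and the serum amyloid Saa4 (2.80-fold). Azgp1 read 13.11 to 14.60 in aHCC (median 14.01), against 13.32, 9.56, 10.83, 13.36 and 10.54 in eHCC, so that eHCC 38 and 44 lay within the aHCC range. The control-subtracted differences of these genes were 2.16 for Azgp1, 2.10 for Kng1, 2.30 for Fgl1, 2.43 for Cyp4a3, 2.38 for Sdr16c6, 2.09 for Cyp8b1, 1.99 for Nnmt and 2.02 for Saa4, all on the log2 scale and none past the limma threshold. In Cyp4a3, Fgl1, Kng1, Cyp8b1, Nnmt, Sdr16c6 and Saa4 replicate 29 was the lowest aHCC, at 7.74, 7.26, 8.64, 7.74, 8.42, 7.05 and 10.99. Without it these genes, in that order, were 5.06-fold, 5.64-fold, 7.62-fold, 4.62-fold, 4.33-fold, 4.55-fold and 3.29-fold higher in aHCC than in eHCC in the direct test. With all arrays most of these calls were close to the threshold: of 20 fits that each left out 1 array, Cyp4a3 and Cyp8b1 passed in 2, Fgl1 and Saa4 in 4, Kng1 in 10, Sdr16c6 in 11, Nnmt in 12 and Azgp1 in 20.

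The lower side also held Ctrc, a pancreatic digestive protease, and Heph, a copper-dependent iron oxidase. Ctrc read 7.51 to 8.95 in aHCC (median 8.45), against 9.56, 9.67, 12.03, 10.77 and 10.57 in eHCC. The ranges did not meet, and Ctrc was 4.27-fold lower in aHCC (limma adjusted p = 0.000417; control-subtracted −2.21, adjusted p = 0.274). Heph read 8.08 to 9.59 in aHCC (median 8.91), against 9.46, 12.01, 11.38, 9.92 and 10.69 in eHCC, with an overlap through eHCC 38. It was 3.64-fold lower (limma adjusted p = 0.00111; control-subtracted −2.25, adjusted p = 0.258). Pla2g7, the enzyme that inactivates platelet-activating factor, was 3.84-fold lower, the myelin protein Pmp22 3.27-fold, annexin Anxa1 3.13-fold, Smoc2 2.94-fold, Fbln1 2.77-fold and S100a4 2.38-fold in the direct test. Their control-subtracted differences lay between −2.04 for Pla2g7 and −1.80 for Anxa1. In each of these genes the stages overlapped, with and without replicate 29. Smoc2 in eHCC 38 (8.19) lay below every aHCC (8.45 to 9.60). S100a4 in eHCC 38 (8.82) and Pla2g7 in eHCC 44 (8.87) lay below the aHCC medians (9.63 and 9.15). Among them S100a4 passed in 3 and Smoc2 in 16 of the 20 fits that left out 1 array.

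**Figure D4:**
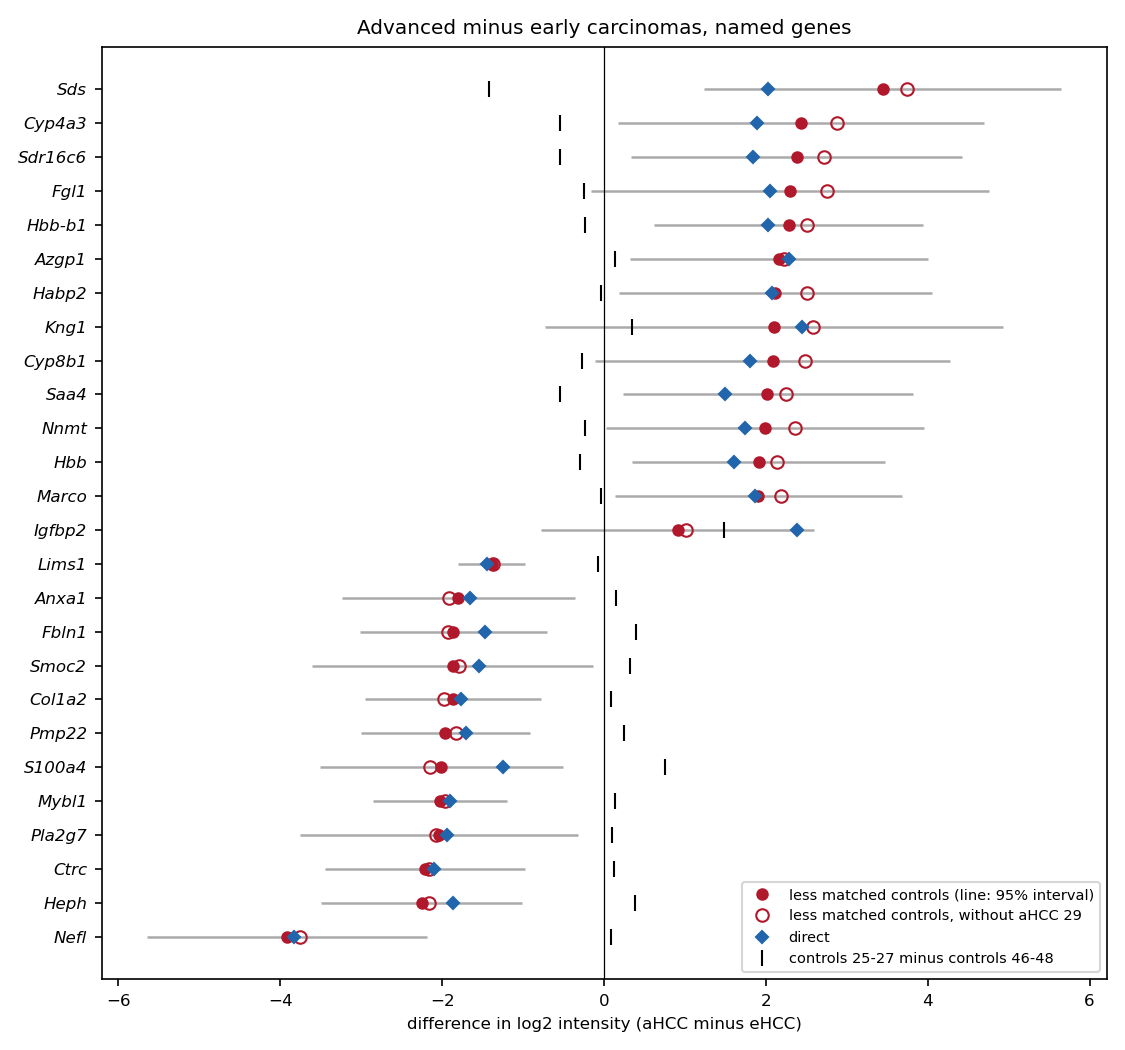
Differences in log2 intensity, aHCC minus eHCC, for 26 named genes: control-subtracted with its 95% interval (filled circles and lines), control-subtracted without replicate 29 (open circles), direct (diamonds), and controls 25 to 27 minus controls 46 to 48 (ticks). For Igfbp2 the direct difference is 2.39, the control-subtracted one 0.91 and the control difference 1.48, while for Nefl, Marco and Lims1 the control difference is close to 0.

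Igfbp2, Marco and Col1a2 were chosen as stage markers with earlier results of these data known. Igfbp2, a binding protein of insulin-like growth factors, read 9.64 to 12.56 in aHCC (median 10.55), against 8.99, 7.90, 7.95, 8.34 and 7.41 in eHCC. All aHCC lay above all eHCC, a 5.24-fold direct difference (limma adjusted p = 0.0017). The controls differed in the same direction, with 8.22, 10.14 and 10.94 in controls 25 to 27 against 7.86, 8.75 and 8.25 in controls 46 to 48, and the control-subtracted difference was 0.91 ± 0.81 (log2, SE; adjusted p = 0.85). Marco, a scavenger receptor of Kupffer cells, the resident macrophages of the liver, read 8.57 to 10.68 in 8 aHCC and 7.12 in replicate 29, against 7.91, 7.41, 7.24, 7.78 and 7.33 in eHCC. The 6 controls read 9.82 to 10.97, so the eHCC were the low group. Marco was 3.63-fold higher in aHCC (limma adjusted p = 0.0136), and the control-subtracted difference was 1.90 ± 0.85 (log2, SE; adjusted p = 0.572). Col1a2, a chain of type I collagen, read 10.67 to 11.40 in 8 aHCC and 12.00 in replicate 29, against 11.49, 13.48, 12.58, 13.60 and 13.18 in eHCC. It was 3.41-fold lower in aHCC (limma adjusted p = 0.000571). After subtraction its difference was −1.87 ± 0.52 (adjusted p = 0.309, 0.0773 without replicate 29 and 0.0373 without eHCC 38, whose 11.49 was the lowest of the eHCC).

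More matrix genes were lower than higher in aHCC. Of 33 measured members of an extracellular matrix and stellate cell list, 13 were lower and 1 higher in the direct test, beside 7.37% and 6.22% of all features, and 14 and 2 without replicate 29, beside 14.7% and 12.6%. The 13 were the collagens Col1a1, Col1a2, Col3a1, Col5a1, Col5a2 and Col6a1, the fibre proteins Fbn1 and Fbln1, the matricellular Sparc and Sparcl1, the collagen cross-linker Lox and the protease inhibitors Timp2 and Timp3. The proteoglycan Vcan was the 1 higher (0.33 on the log2 scale). Sparc differed by −1.14 (limma adjusted p = 0.00111), Col3a1 by −1.35 and Lox by −1.06, with control-subtracted values of −0.84, −1.40 and −1.16. The list's median was 0.14 in aHCC over their controls and 0.65 in eHCC over theirs, and the median control-subtracted difference was −0.46, against −0.005 over all features. Mean stellate and fibroblast markers read 9.00 to 9.93 in 8 aHCC and 9.54 in replicate 29, against 9.41 to 10.55 in eHCC, and 6 markers had a probe. Of these, Col1a1, Col1a2, Col3a1 and Dcn had lower medians in the 8 aHCC than in eHCC. Reln (10.91 against 10.28) and Lum (7.41 against 7.18, undetected in eHCC) had higher ones. In captured tissue fewer cells of a type and less RNA per cell cannot be told apart.

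**Figure D5:**
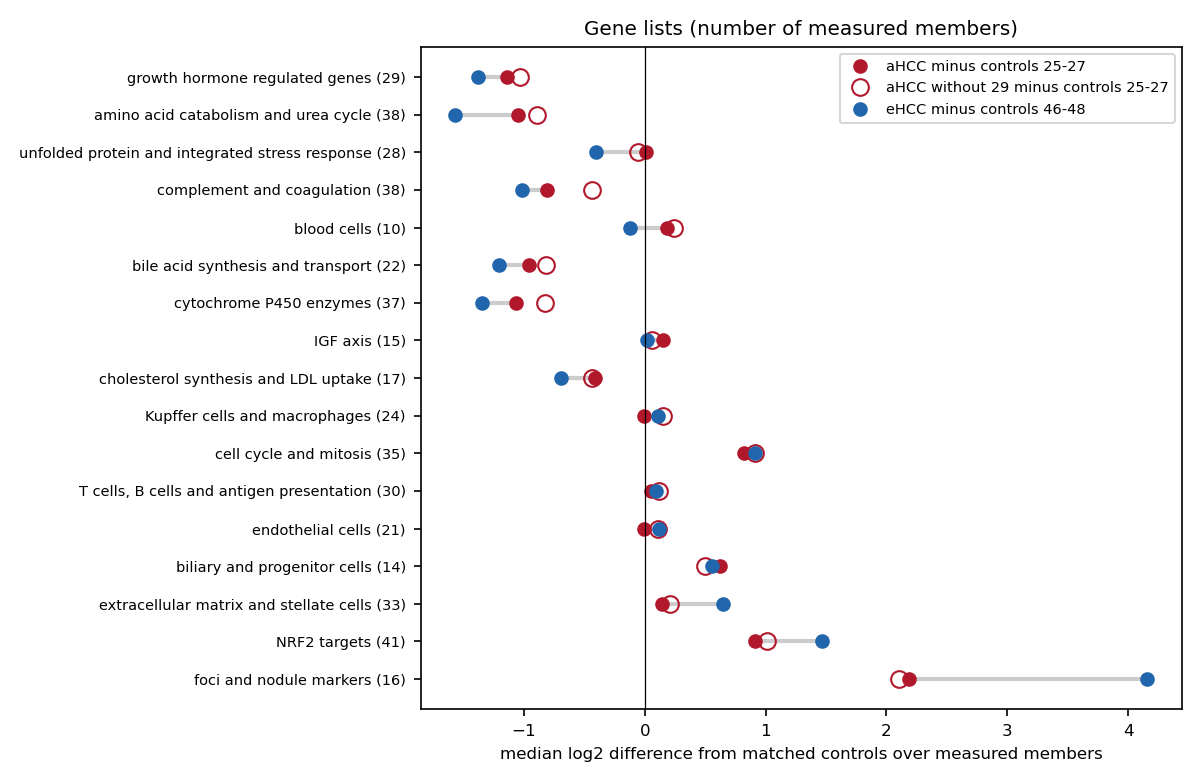
Median log2 difference from matched controls over the measured members of 17 gene lists, for aHCC (filled), aHCC without replicate 29 (open) and eHCC (blue), ordered from the most positive to the most negative control-subtracted median. Foci and nodule markers read 2.19 in aHCC and 4.16 in eHCC, matrix genes 0.14 and 0.65, and cell cycle genes 0.82 and 0.91.

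Many detoxifying genes under NRF2 were above control at both stages, and where they differed between stages nearly all were lower in aHCC. NRF2 is a transcription factor released when its inhibitor KEAP1 is modified by electrophiles, and it binds the antioxidant response element in the promoters of glutathione and quinone enzymes. Against their own controls, 23 of 41 measured targets were higher in aHCC (6.16% of all features were) and 28 in eHCC (11.3%), with medians of 0.91 and 1.47. Between stages 13 were lower in aHCC and 1 higher, beside 7.37% and 6.22% of all features. Without replicate 29 the counts were 21 and 4, beside 14.7% and 12.6%. The 13 were Nqo1, Gclc, Gclm, Gsr, Gsta3, Akr1b8, Akr1b10, Abcc3, Ugt1a6, Ugdh, Taldo1, Me1 and Cat, and the median control-subtracted difference over the list was −0.71. In Cat the controls differed by −1.09, and the control-subtracted difference was −0.22.

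Abcc3, an export pump for glucuronides, read 9.85 to 11.25 in 8 aHCC and 12.23 in replicate 29, against 12.34, 12.65, 12.09, 12.32 and 12.06 in eHCC. Only replicate 29 reached the eHCC, and Abcc3 was 2.31-fold lower in aHCC (limma adjusted p = 0.00239; control-subtracted −1.37, adjusted p = 0.365). Gclm, the regulatory chain of glutamate-cysteine ligase, read 13.12 to 15.23 in aHCC (median 14.03), against 15.09, 15.33, 15.25, 15.03 and 15.06 in eHCC, a 2.19-fold direct difference (limma adjusted p = 0.0114; control-subtracted −1.34, adjusted p = 0.478) with 5 arrays within 0.5 of the upper limit. Nqo1, the quinone reductase, differed by −0.92 (limma adjusted p = 0.00469; control-subtracted −0.80), and it was 3.86 above control in aHCC and 4.66 in eHCC on the log2 scale. Gstm7 went the other way, with a difference of 0.93 (limma adjusted p = 0.00812; control-subtracted 0.64), and it was below control at both stages, by −1.86 in aHCC and −2.50 in eHCC.

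The promoters of the NRF2 list were searched for the core of the antioxidant response element, TGACNNNGC or on the opposite strand GCNNNGTCA, in 250 bases before to 50 after each start. Of 36 measured targets with a promoter in the RefSeq table (GRCr8), 13 held a match (36.1%), against 3602 of 27457 genes (13.1%). The list was chosen as targets of NRF2, so a higher share was likely beforehand and is not a result of these arrays. Of the 13 with a match, 4 were lower in aHCC in the direct test (Gclm, Gsta3, Me1 and Ugdh) and 1 higher (Gstm7). Without replicate 29 Gpx2, Gsta2 and Txnrd1 joined the lower ones. The whole list gave 13 lower and 1 higher of 41, beside 7.37% and 6.22% of all features. Without replicate 29 it gave 21 and 4, beside 14.7% and 12.6%. Whether genes with a match differed from the rest of the list was not tested. The promoters of Gclm (chr2:213031885-213032184, plus strand) and of Txnrd1, a thioredoxin reductase (chr7:22755855-22756154, minus strand), are printed because these genes had the largest differences without replicate 29 among those with a match. The match lies on the opposite strand, 172 and 78 bases before the start. Capitals mark the match, which is a description of these letters and not of binding.
Gclm: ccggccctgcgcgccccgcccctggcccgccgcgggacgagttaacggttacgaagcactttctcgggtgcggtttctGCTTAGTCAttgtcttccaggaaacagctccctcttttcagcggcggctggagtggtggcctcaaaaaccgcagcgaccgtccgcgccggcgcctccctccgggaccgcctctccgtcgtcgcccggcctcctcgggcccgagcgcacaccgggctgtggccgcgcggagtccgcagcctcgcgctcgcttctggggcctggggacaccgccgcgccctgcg
Txnrd1: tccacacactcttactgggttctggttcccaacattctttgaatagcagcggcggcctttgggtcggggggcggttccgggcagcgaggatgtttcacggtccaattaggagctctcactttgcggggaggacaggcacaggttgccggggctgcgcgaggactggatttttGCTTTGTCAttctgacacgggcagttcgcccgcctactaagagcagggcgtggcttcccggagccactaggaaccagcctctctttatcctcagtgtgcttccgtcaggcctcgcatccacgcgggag
Txnrd1 differed by −0.90 with all arrays (limma adjusted p = 0.0982) and by −1.15 without replicate 29 (adjusted p = 0.000485).

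Markers of altered foci and nodules, a list that overlaps the NRF2 targets, were 2.19 above control in aHCC and 4.16 in eHCC by their medians. Of 16 measured, 4 were lower in aHCC in the direct test (Akr1b8, Akr1b10, Nqo1 and Nefl) and 0 higher (7.37% and 6.22% of all features), or 8 and 0 without replicate 29 (14.7% and 12.6%), and the median control-subtracted difference was −0.98. Akr1b8, an aldo-keto reductase, was 5.67 above control in aHCC and 6.43 in eHCC, a direct difference of −0.93 (limma adjusted p = 0.00329; control-subtracted −0.76). Krt19 spread widely within both stages, from 9.08 to 13.59 in aHCC, against 11.48, 15.08, 12.84, 10.66 and 11.68 in eHCC, and its direct difference of −0.71 did not pass (limma adjusted p = 0.614).

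The cytochrome P450, amino acid, growth hormone, bile acid, complement and cholesterol lists had medians below control at both stages. Their members that differed between stages were mostly higher in aHCC. Other hepatocyte lists did not all do so. Fatty acid synthesis gave 2 higher and 4 lower of 30, apolipoproteins 0 and 2 of 16, and glycolysis 0 and 1 of 31 in the direct test. Without replicate 29 these were 2 and 6, 8 and 2, and 5 and 4. Fatty acid oxidation gave 5 and 2 of 34 (6 and 5 without it). Of 37 measured cytochrome P450 genes, 7 were higher and 1 lower in the direct test, beside 6.22% and 7.37% of all features, and 17 and 1 did so without replicate 29, beside 12.6% and 14.7%. The 7 were Cyp1a2 (1.78 on the log2 scale), Cyp2d1, Cyp2d5, Cyp3a9 (1.85), Cyp3a18, Cyp4a2 and Cyp4a3, and the lower one was the retinoic acid hydroxylase Cyp26b1 (−0.93). The list's median over control was −1.07 in aHCC and −1.35 in eHCC, and the median control-subtracted difference 0.28. Of 38 genes of amino acid catabolism and the urea cycle, 5 were higher (Asl, Sds, Hpd, Gnmt and Aass) and 0 lower, or 14 and 0 without replicate 29, with medians over control of −1.05 in aHCC and −1.57 in eHCC and a median control-subtracted difference of 0.54. Gnmt, which consumes methyl groups in the hepatocyte, differed by 1.72 (limma adjusted p = 0.0142; control-subtracted 1.47), and Asl, argininosuccinate lyase of the urea cycle, by 1.16 (adjusted p = 0.0143; control-subtracted 0.74).

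Genes regulated by growth hormone, which sets the sex-specific pattern of rat liver, gave 3 higher (Cyp4a2, Cyp3a18 and the signal transducer Stat5b) and 1 lower of 29 measured, beside 6.22% and 7.37% of all features. Without replicate 29 the counts were 12 and 1, beside 12.6% and 14.7%, and the list's median control-subtracted difference with all arrays was 0.70. The lower one with all arrays was Bcl6, a repressor that opposes STAT5 in liver. Bcl6 read 7.63 to 8.99 in aHCC (median 8.28), against 10.05, 9.07, 9.30, 10.27 and 9.45 in eHCC, so the stages did not overlap, while the controls read 8.99 to 10.53. It was 2.67-fold lower in aHCC than in eHCC (limma adjusted p = 0.00153; control-subtracted −1.67, adjusted p = 0.311). Stat5b differed by 0.62 (limma adjusted p = 0.000476; control-subtracted 0.52).

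Bile acid genes gave 3 higher (Cyp8b1, Cyp27a1 and the sterol exporter Abcg5) and 2 lower (Abcc3 and the receptor Fgfr4) of 22 measured, beside 6.22% and 7.37% of all features, and 9 and 2 without replicate 29 (12.6% and 14.7%). Complement and coagulation genes gave 4 higher (Mbl2, F7, Kng1 and Kng2) and 0 lower of 38, or 11 and 1 without replicate 29. Cholesterol synthesis gave 3 higher (Pmvk, Mvd and Ebp) and 1 lower of 17, or 7 and 1 without replicate 29. The median control-subtracted differences of these lists were 0.30, 0.31 and 0.02. The lower cholesterol gene with all arrays, Dhcr7, catalyses the last step of the pathway. It read 11.21 to 13.07 in aHCC (median 12.41), against 13.45, 13.03, 13.72, 13.20 and 13.28 in eHCC, and was 2.12-fold lower in aHCC (limma adjusted p = 0.00242; control-subtracted −0.89, adjusted p = 0.557). Replicate 29 was low in hepatocyte markers other than albumin as well as in many of these genes, and the part of hepatocyte content in these counts was not tested.

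Genes of the unfolded protein and integrated stress response, which restore folding capacity in the endoplasmic reticulum, were mostly higher in aHCC where they differed. Of 28 measured, 9 were higher and 1 lower in the direct test, beside 6.22% and 7.37% of all features, or 11 and 1 without replicate 29 (12.6% and 14.7%). The 9 were the chaperones and folding factors Canx, Dnajc3, Sdf2l1, Creld2 and Manf, and the stress regulators Xbp1, Atf4, Trib3 and Nupr1. The sensor kinase Eif2ak3 was the lower one (−0.51 on the log2 scale, and −0.27 after control subtraction). The differences were small in most, at 0.56 for Canx, 0.63 for Dnajc3, 0.51 for Xbp1 and 0.57 for Atf4, with control-subtracted values of 0.54, 0.77, 0.88 and 0.61. The list's median lay at 0.01 over control in aHCC and −0.40 in eHCC, with a median control-subtracted difference of 0.52, and 2 members were below control in aHCC (5.87% of all features were) and 11 in eHCC (9.99%).

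Nupr1, a stress-induced nuclear protein, read 11.10 to 11.90 in 8 aHCC and 14.00 in replicate 29, against 10.92, 9.14, 10.44, 11.19 and 10.33 in eHCC. The stages overlapped through eHCC 44, and Nupr1 was 2.80-fold higher in aHCC (limma adjusted p = 0.0135; control-subtracted 1.5, adjusted p = 0.582). Without eHCC 39 its difference was 1.17 with an adjusted p of 0.053. Creld2 read 9.54 to 10.86 in aHCC (median 9.85), against 9.46, 9.23, 9.49, 9.59 and 9.59 in eHCC, and its 1.44-fold direct difference (limma adjusted p = 0.0374) passed in 12 of the 20 fits that each left out 1 array.

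The endoplasmic reticulum stress element, to which the active form of ATF6 binds together with NF-Y, was searched on both strands as CCAAT, 9 bases of any kind and CCACG (read from the opposite strand, CGTGG, 9 bases and ATTGG). It was found in 7 of 24 members with a promoter (29.2%), against 21 of 27457 genes (0.0765%). The members were chosen as genes of this response, so a higher share was likely beforehand and is not a result of these arrays. Of the 7 with a match, Canx, Creld2, Dnajc3 and Xbp1 were higher in aHCC, and Calr, Hsp90b1 and Hspa5 did not pass. The whole list gave 9 higher of 28, beside 6.22% of all features. The promoters of Dnajc3 (chr15:102432417-102432716, plus strand), Creld2 (chr7:121789134-121789433, plus strand) and Xbp1 (chr14:84604373-84604672, plus strand), from the same RefSeq table, are shown by the same choice, with the match in capitals, 133, 145 and 65 bases before the start. It lies on the gene's own strand in Dnajc3 and Xbp1 and on the opposite strand in Creld2.
Dnajc3: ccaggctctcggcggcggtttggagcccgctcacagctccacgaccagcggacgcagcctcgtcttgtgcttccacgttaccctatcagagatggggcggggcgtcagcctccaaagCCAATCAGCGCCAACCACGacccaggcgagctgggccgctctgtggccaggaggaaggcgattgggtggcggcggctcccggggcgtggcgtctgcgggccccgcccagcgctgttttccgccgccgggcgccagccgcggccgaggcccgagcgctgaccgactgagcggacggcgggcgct
Creld2: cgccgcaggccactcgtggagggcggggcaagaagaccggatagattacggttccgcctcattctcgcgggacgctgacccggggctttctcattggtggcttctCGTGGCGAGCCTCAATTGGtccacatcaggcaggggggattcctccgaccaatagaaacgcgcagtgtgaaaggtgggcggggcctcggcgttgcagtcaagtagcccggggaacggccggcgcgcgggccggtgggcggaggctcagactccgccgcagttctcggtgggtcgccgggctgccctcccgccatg
Xbp1: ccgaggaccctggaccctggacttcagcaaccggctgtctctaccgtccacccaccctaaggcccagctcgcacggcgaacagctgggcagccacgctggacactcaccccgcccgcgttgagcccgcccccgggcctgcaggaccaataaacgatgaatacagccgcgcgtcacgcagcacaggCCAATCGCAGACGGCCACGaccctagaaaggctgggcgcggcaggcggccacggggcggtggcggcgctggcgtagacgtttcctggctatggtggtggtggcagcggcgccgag
Hspa5, the chaperone BiP, differed by 0.07 in the direct test (limma adjusted p = 0.658), and its controls differed by −0.45.

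Many cell cycle genes were above control at both stages, and none passed between the stages with all arrays. Of 35 measured, 22 were higher than control in aHCC (6.16% of all features were) and 23 in eHCC (11.3%), with medians of 0.82 and 0.91. Between stages 0 passed the direct limma test, which called 13.6% of all features (2 members at an unadjusted p under 0.05). Without replicate 29, 1 member, Aurka, was higher, beside 12.6% of all features. Cdk1, the kinase that drives entry into mitosis, was 2.47 above control in aHCC and 2.60 in eHCC, a control-subtracted difference of −0.13 ± 0.68 (log2, SE; limma adjusted p = 0.982).

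The macrophage genes that passed the direct test were higher in aHCC than in eHCC, but after control subtraction the list's median lay close to 0. Of 24 measured Kupffer cell and macrophage genes 4 were higher (Marco, Vsig4, Cd14 and Tyrobp) and 0 lower, beside 6.22% and 7.37% of all features, or 11 and 0 without replicate 29 (12.6% and 14.7%). The list's median was 0.25 in the direct difference, 0.24 between the control sets and −0.02 after control subtraction, with 11 members positive and 13 negative. Vsig4, a complement receptor of Kupffer cells, read 9.5 to 10.89 in 8 aHCC and 6.97 in replicate 29, against 9.36, 8.08, 7.22, 7.89 and 7.42 in eHCC. The 8 aHCC lay above all eHCC and near the controls (9.47 to 10.30). Vsig4 was 3.42-fold higher in aHCC (limma adjusted p = 0.0208), a call lost without eHCC 40 or 45, and its control-subtracted difference was 1.39 (adjusted p = 0.745). Cd14, the co-receptor for lipopolysaccharide, differed by 1.07 (limma adjusted p = 0.00639; control-subtracted 1.06, adjusted p = 0.518), and for Tyrobp the controls differed by 0.82 and the control-subtracted value was −0.18. The mean of 5 Kupffer markers was 10.0 to 11.31 in 8 aHCC and 8.36 in replicate 29, against 9.10 to 9.84 in eHCC.

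Globin genes were also higher in aHCC. Hbb-b1, a beta globin, read 11.41 to 13.27 in 8 aHCC and 10.20 in replicate 29, against 10.46, 10.42, 9.24, 10.18 and 9.91 in eHCC, and was 4.09-fold higher in aHCC (limma adjusted p = 0.00498; control-subtracted 2.28, adjusted p = 0.424). The controls spanned 10.84 to 13.19. Of 10 measured blood cell genes 5 were higher, the globins Hbb-b1, Hbb and Hba-a1, the heme synthesis enzyme Alas2 and the neutrophil protein S100a8, and 0 were lower, beside 6.22% and 7.37% of all features (5 and 0 also without replicate 29, beside 12.6% and 14.7%). The mean of 4 blood markers was 9.53 to 10.56 in 8 aHCC and 9.52 in replicate 29, against 8.72 to 9.37 in eHCC, and the part of blood content in the macrophage difference was not tested.

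Other cell types gave few calls. Of 21 endothelial genes, 1 was higher, Vwf, the clotting protein stored in endothelium, and 0 were lower, beside 6.22% and 7.37% of all features (5 and 0 without replicate 29, beside 12.6% and 14.7%). Vwf read 8.37 to 9.58 in aHCC (median 8.59), against 7.48, 7.86, 7.5, 8.01 and 7.87 in eHCC, with no overlap, and was 2.04-fold higher in aHCC (limma adjusted p = 0.000545; control-subtracted 1.11, adjusted p = 0.285). The 6 controls, at 8.41 to 8.65, lay with the aHCC. Of 30 T cell, B cell and antigen presentation genes, 3 were lower (Cd4, Ptprc and Tap2) and 0 higher, a share of lower genes near the 7.37% of all features, and without replicate 29 the counts were 3 and 3. Of 14 biliary and progenitor genes, Spp1 was higher and Sox4 lower (2 and 2 without replicate 29). Spp1, osteopontin, read 7.60 to 9.89 in aHCC (median 8.51), against 7.35, 7.43, 7.08, 7.37 and 7.30 in eHCC, where it was detected in 2 of 5. Every aHCC lay above every eHCC, a 2.70-fold difference (limma adjusted p = 0.0118; control-subtracted 1.43, adjusted p = 0.572), while the mean of 3 biliary markers was 8.43 to 10.40 in 8 aHCC and 11.08 in replicate 29, against 9.53 to 12.46 in eHCC.

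Among 15 measured genes of the insulin-like growth factor axis, Igfbp2 was higher and Igf2r and Igfbp3 were lower, with and without replicate 29. With all arrays 6.22% of all features were higher and 7.37% lower, and the list's median control-subtracted difference was 0.09. Igfbp3, the main carrier of these factors in plasma, read 10.91 to 12.01 in 8 aHCC and 12.72 in replicate 29, against 11.58, 12.37, 13.34, 13.13 and 12.79 in eHCC. It was above control at both stages, by 1.13 in aHCC and 2.52 in eHCC on the log2 scale, and 2.44-fold lower in aHCC than in eHCC (limma adjusted p = 0.00619; control-subtracted −1.39, adjusted p = 0.478). For Igf2r, the receptor that clears IGF2, the controls differed by −0.66, and the control-subtracted difference was −0.12.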

How the data were processed

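RNA of laser-captured samples was hybridised to single-colour Illumina rat arrays, and the submitters' processing notes name BeadStudio 3.0.19.0 as the authors' software. The deposited table holds a linear intensity and a detection p-value per probe. It was deposited as non-normalized, but its intensity values have nearly 1 distribution in all 48 arrays (medians 159.0 to 159.6, the same maximum in each), so they were taken as normalized already, without background subtraction (lowest intensity 96.8). The deposited detection p-value comes in steps of 1 in 825. The second deposited table was identical (largest difference 0) and gave no separate value. The sources used here do not give the annotation behind the probes.

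Intensities were put on the log2 scale and not normalized again. Background correction with quantile normalization (neqc), planned for raw values, became an alternative. Uncorrected background understates the fold of dim genes. Probes were kept with a detection p-value under 0.05 in at least 3 of 20 arrays (12515 probes). Of all probes 13793 had 1 symbol, 0 several and 8730 none, 13752 matched RefSeq (GRCr8) by gene identifier, and 0 symbols changed. The brightest probe stood for a gene. The 4 groups were fitted with limma 3.58.1 in R 4.3.3 (residual df 16), p-values were adjusted by Benjamini-Hochberg over 12341 features, and errors are SE of the fit. The fit was tested on simulated data. The number of arrays limits the precision. Arrays 25 to 36 and 37 to 48 were taken as sets from the sample numbers, which is an inference.

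Named genes were Igfbp2, Marco and Col1a2; up to 12 rises and 12 falls that passed both tests with and without replicate 29, filled up with those that passed the direct test and had a control-subtracted difference of the same sign and at least 1, by its size; and the 2 largest rises and falls of each described list. Other genes named in the text were members of a described list or of a count given there, or were chosen after their values were seen. The members and the 32 lists were chosen with earlier results of these data known, and the 17 lists described were picked after the results were seen. Alternatives were the background correction, filter, probe choice, weights, random set block, all 48 arrays, median centring and leaving out each array in turn.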

Additional observations from a re-analysis of the deposited data

Results flagged for a closer look

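In 160 groups of 4 to 10 arrays examined for an extreme sample by Dixon's criterion, 27 had one. Chance gives about 1 in 20 groups if groups are independent. These were not, because the same arrays recur across genes, so the count cannot be judged by that rate. The examined values were the log2 intensities of named genes and the numbers of detected probes.

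Most of them, 20 of 27, were aHCC replicate 29. It lay far below the other aHCC in liver enzymes and secreted proteins: Cyp4a3 at 7.74, Cyp8b1 at 7.74, Cyp2c12 at 7.41, Cyp2c7 at 7.39, Habp2 at 7.59, Nnmt at 8.42, Msmo1 at 7.77, Insig2 at 9.59, Akr1d1 at 8.08, Slc27a5 at 7.77, plasminogen Plg at 9.49 and complement factor Cfi at 13.30. It was also lowest in the macrophage and antigen presentation genes Ctss at 8.81, Vsig4 at 6.97 and RT1-Da at 11.31, in Ramp2 at 8.25 and Igfbp7 at 11.37, and in its number of detected probes, 8689. It was far above the others in Sox4 at 9.45 and Nupr1 at 14.00.

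Among the other aHCC, replicate 36 was high in Igfbp2 at 12.56 and low in Bckdha, a subunit of the enzyme that breaks down branched amino acids, at 9.43. In eHCC, replicate 38 was low in S100a4 at 8.82, in the endothelial Emcn at 9.71 and in the carbonic anhydrase Car2 at 13.73. Replicate 39 of eHCC was high in Tspan8 at 12.71 and low in Akr1d1 at 11.83. The direct difference of Tspan8 was 1.05 on the log2 scale with all arrays (limma adjusted p = 0.307) and passed in 1 of 20 fits that left out 1 array, the one without replicate 39 (1.99, adjusted p = 0.00158). Its control-subtracted difference passed in 0 of 20.

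Lims1 was the gene whose change from control differed between the stages by the test of the difference itself, by −1.38 on the log2 scale (limma adjusted p = 0.0153).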

How the results depend on the processing

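The control-subtracted count of 1 feature was the same with every array centred on its median, with no filter, with a filter of 10 arrays, with a trended and robust fit, with every probe kept and with the second table. It was 2 after neqc, 16 with all 48 arrays in the fit and 283 with array weights; the direct test, without controls, gave 1677, and with all 48 arrays and the set as a random block 649. Leaving out 1 array gave 0 to 32: 32 without aHCC 29, 22 without control 25, 18 without eHCC 38, 5 without eHCC 44, 2 without aHCC 36 and 0 without control 26, 46, 47 or 48. Alternatives chosen after seeing the data combined the loss of replicate 29 with neqc (6), median centring (28), loss of eHCC 39 (48), all 48 arrays (179) and array weights (327). The direct count of 1677 was 1222 to 3370 without 1 array (3370 without aHCC 29), 2759 with all 48 arrays and 3713 with array weights. Without replicate 29 it was 3342 after neqc, 3376 with centring, 3016 also without eHCC 39, 3907 with all 48 arrays and 3722 with weights. The control sets gave 396 calls with all 48 arrays, 1448 with weights and 7 to 524 without 1 array. Calls of aHCC over controls were 2565 with all 48 arrays, 3184 with weights and 724 to 2661 without 1 array, and those of eHCC were 4647 with weights and 1656 to 4150 without 1 array. The ratio of the spread among aHCC to that among eHCC, 1.481, ranged from 1.025 to 1.677 without 1 array. No named gene that was called turned its direction in these settings. The balance of the counts did turn without replicate 29: features that passed the direct test with a control-subtracted difference of at least 1 were 38 higher and 79 lower with all arrays, and 113 higher and 96 lower without it. The cause of the changed counts was not tested. Of 79 named genes, 41 passed the direct test, and 27 did in every fit that left out 1 array. Over all features 13.6% passed that test. The share among named genes was partly set by their choice, because up to 12 rises and 12 falls were named only if they passed it. Array number, the 3 controls per set and the upper limit of intensity set the precision. No paired analysis was possible because the labels do not tie lesions or controls to animals.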

Other observations

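The other 15 lists that were measured gave these counts in the direct limma test, where 6.22% of all features were higher in aHCC and 7.37% lower (12.6% and 14.7% without replicate 29). Of 39 genes of oxidative phosphorylation 9 were higher and 3 lower (15 and 7 without replicate 29), with the higher ones all below 0.7 on the log2 scale, from Ndufv2 (0.34) to Atp5pd (0.63), a subunit of ATP synthase. Controls of the sets differed in several of them, by 0.74 in Ndufa1, 0.62 in Cox6c and 0.54 in Atp5f1d, and the control-subtracted differences there were −0.16, −0.07 and 0.00. Cox5b, a cytochrome oxidase subunit, was 0.46 direct and 0.37 after subtraction, and Sdha, of succinate dehydrogenase, was lower (−0.82 direct, with a control-subtracted value of −0.83).

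Genes of cell adhesion and junctions gave 4 lower and 0 higher of 26 (10 and 3 without replicate 29): plakoglobin Jup (−1.14), p120 catenin Ctnnd1 (−1.08), the junctional adhesion molecule F11r (−0.87) and the tight junction scaffold Tjp1 (−0.49). Their control-subtracted differences were −0.85, −0.51, −0.46 and −0.19. Iron handling gave 4 lower and 0 higher of 21 (7 and 1 without replicate 29), among them Heph (−1.86), the iron exporter Slc40a1, ferroportin (−0.80, with a control difference of 0.04), and transferrin Tf (−0.36, where the controls differed by as much). TGF-beta and YAP genes gave 4 lower and 2 higher of 23 (4 and 2 without replicate 29), with control-subtracted values of −1.12 and −0.86 for Ltbp2 (−1.10 direct) and Tgfb2 (−0.89 direct), while Tgfb1 was 0.41 direct and −0.28 control-subtracted. Fatty acid oxidation and PPARA targets gave 5 higher (Cyp4a2, Cyp4a3, Slc25a20, Angptl4 and Pdk4) and 2 lower (Acaa2 and Acadl) of 34 (6 and 5 without replicate 29). Fatty acid synthesis gave 2 higher and 4 lower of 30 (2 and 6), and for Acly the direct −0.79 became −0.01.

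Acute phase proteins gave 2 higher and 2 lower of 27 (6 and 4 without replicate 29), hypoxia and angiogenesis 2 and 2 of 23 (3 and 5), WNT targets and perivenous genes 3 and 1 of 21 (8 and 1), fetal liver and liver cancer markers 1 and 1 of 16 (2 and 2), and hepatocyte transcription factors 2 and 0 of 25 (6 and 1). For 2 lists the balance turned without replicate 29: apolipoproteins gave 0 higher and 2 lower of 16 with all arrays and 8 and 2 without it, and glycolysis and gluconeogenesis 0 and 1 of 31 with all arrays and 5 and 4 without it. Targets of p53 gave 0 and 2 of 19 (0 and 3). The alpha-fetoprotein gene Afp differed by 1.00 with all arrays (adjusted p = 0.201) and by 1.22 without replicate 29 (adjusted p = 0.0429). Of 27 interferon response genes 0 passed in limma with all arrays (3 at an unadjusted p under 0.05) and 5 were higher without replicate 29.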
